A study of Mus musculus with 4 samples.

Results

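The genes described here are Rgs1, Rgs2, Rgs3, Rgs10 and Rgs16, 5 members of the family of regulators of G protein signalling, out of 12763 genes in the deposited table. All 5 were found there by symbol. They were chosen by their levels in the 4 libraries and in tumour cells with and without a value of Pdcd1, Havcr2 or Tnfrsf9, as an earlier look at the same data had shown them. Their differences in those comparisons are therefore descriptions of selected genes and carry no test.

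RGS proteins carry the RGS domain, which speeds the hydrolysis of GTP by the alpha subunits of heterotrimeric G proteins and so ends the signal of a G protein coupled receptor sooner. Chemokine receptors and sphingosine 1-phosphate receptors, which steer lymphocytes into and out of tissues, signal largely through alpha subunits of the Gi class. RGS1 and RGS16 act on Gi and Gq, RGS2 is best known as a brake on Gq, RGS3 acts on Gi and Gq, and RGS10 acts on Gi. Rgs1 and Rgs16 are also known as genes that activated lymphocytes induce.

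The study sequenced single CD8 T cells of mixed bone marrow chimeras bearing B16K1 melanoma, a subcutaneous mouse tumour, 21 days after tumour inoculation. C57BL/6 recipients irradiated with 8 Gray received marrow of Cd4creCd137fl/flROSA26tomato donors, whose T cells lose CD137 because Cre is expressed from the Cd4 promoter, and of Cd137fl/flROSA26tomato donors without Cre. CD137 (4-1BB) is a costimulatory receptor encoded by Tnfrsf9. Reconstitution was checked after 7 weeks. Cells of the Cre donor formed the tumour CD137 minus and spleen CD137 minus groups, and cells of the other donor formed the tumour CD137 plus and spleen CD137 plus groups, all from the same kind of chimera. Each group is 1 library of cells pooled from 7 mice, and the table does not say which mouse a cell came from. Cells were sorted by the tomato reporter, on which the labels contradict each other, so groups were taken from the stated CD137 status alone. Loss of CD137, presence of Cre and donor cannot be told apart.

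The libraries held 1262 cells of tumour CD137 minus, 2766 of tumour CD137 plus, 2464 of spleen CD137 minus and 473 of spleen CD137 plus. Tnfrsf9, the targeted gene, stood at 57.5 CPM (corrected counts scaled to a total of 1000000) in tumour CD137 minus and 421 CPM in tumour CD137 plus, and at 2.34 CPM in spleen CD137 minus and 16.2 CPM in spleen CD137 plus. Reads of a deleted gene can come from the part that is left, and whether these do was not tested. Cells with a Cd8a or Cd8b1 value made up 99.1% to 99.3% of every library. Median totals per cell were 3701.5 to 5344 corrected counts. A list of 18 stress and handling genes summed to 13547 and 13376 CPM in tumour CD137 minus and plus, against 4910 and 4964 CPM in spleen CD137 minus and plus. Atf3, Hspa1a and Hspa1b of that list were at 0 in both spleen libraries. Markers of dendritic cells and MHC class II summed to 461 CPM in tumour CD137 minus and 696 CPM in tumour CD137 plus, with all 7 present in the table and Flt3 at 0 in tumour CD137 minus. Melanoma markers summed to 34.3 and 33.4 CPM in tumour CD137 minus and plus, and to 1.02 and 0 CPM in spleen CD137 minus and plus. Macrophage and monocyte markers summed to 34.8 and 40.6 CPM in those tumour libraries and to 4.17 and 4.05 CPM in spleen CD137 minus and plus. In all, 19 cell barcodes occurred in more than 1 library.

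A level below is the sum of corrected counts over a group of cells, written as CPM. To be measured in a comparison, a gene needed a level of 20 CPM or more in one of the groups. It also needed a value in 5% or more of the cells of that group, and some value in the other. A gene that met this limit in only 1 group was measured because of its level there, so its call is description only. Higher or lower calls rest on a log2 ratio of 0.5 or more in size, with 1 CPM added to each level. With 1 library per group there is no replicate check, and the 95% intervals of shares (Clopper-Pearson) cover counting error only.

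Rgs1 lies on chromosome 1 at chr1:144242296-144249242 on the minus strand of mm10, with up to 5 exons. It had 792 CPM in tumour CD137 minus, 1023 CPM in tumour CD137 plus, 27.8 CPM in spleen CD137 minus and 46.6 CPM in spleen CD137 plus. A value of Rgs1 was found in 71.6% of tumour CD137 minus cells (interval 69.0% to 74.0%) and 74.7% of tumour CD137 plus cells (73.0% to 76.3%), against 8.36% (7.30% to 9.52%) and 13.3% (10.4% to 16.7%) of spleen CD137 minus and plus cells. Both tumour libraries stood far above both spleen libraries, and the tumour cells with a value averaged 5.29 and 5.09 corrected counts of it in CD137 minus and plus.

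Rgs2 lies on the same chromosome and strand, at chr1:143999338-144004161. It had 183 CPM in tumour CD137 minus and 251 CPM in tumour CD137 plus, against 14.95 and 11.4 CPM in spleen CD137 minus and plus. The share of cells with a value was 40.6% and 42.4% in tumour CD137 minus and plus, and 5.19% and 5.07% in the matching spleen libraries. The tumour libraries again stood apart from the spleen libraries.

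Rgs16 is on the same chromosome at chr1:153740349-153745468, on the plus strand, with 5 exons. It had 321 CPM in tumour CD137 minus and 536 CPM in tumour CD137 plus, but only 2.03 CPM (20 corrected counts) in spleen CD137 minus and 6.08 CPM (15 corrected counts) in spleen CD137 plus. In the tumour, 36.1% of CD137 minus cells (33.5% to 38.9%) had a value, and 51.1% of CD137 plus cells (49.2% to 53.0%). In spleen it was 0.690% (0.402% to 1.10%) of CD137 minus and 1.90% (0.874% to 3.58%) of CD137 plus cells. Both spleen libraries were close to 0 for it.

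Because Rgs2 and Rgs16 share the tumour pattern, the 250 bases before their RefSeq start sites (GRCm38.p6) are shown, from chr1:144004150-144004399 on the minus strand and chr1:153740103-153740352 on the plus strand. Capitals mark matches, on either strand, to the core of the cyclic AMP response element (TGACG), an open NF-kB pattern (GGG, any 5 bases, CC) and the CCAAT box (CCAAT), and overlapping matches run together.
Rgs2: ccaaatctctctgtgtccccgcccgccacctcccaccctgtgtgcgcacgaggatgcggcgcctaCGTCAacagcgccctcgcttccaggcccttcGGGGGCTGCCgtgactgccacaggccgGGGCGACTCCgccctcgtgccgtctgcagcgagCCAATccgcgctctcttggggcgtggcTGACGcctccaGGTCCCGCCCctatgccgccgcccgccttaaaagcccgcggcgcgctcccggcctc
Rgs16: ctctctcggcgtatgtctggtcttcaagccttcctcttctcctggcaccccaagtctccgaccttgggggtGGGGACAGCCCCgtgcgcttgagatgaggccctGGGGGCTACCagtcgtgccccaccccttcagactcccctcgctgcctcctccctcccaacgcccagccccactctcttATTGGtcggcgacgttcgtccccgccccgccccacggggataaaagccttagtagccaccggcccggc
The Rgs2 window held TGACG at positions -185 and -67 from the start site, and 17.8% of all 32851 promoter windows of this length hold it. Its NF-kB pattern matched at -154, -127 and -56, and that of Rgs16 at -179 to -177 in overlapping copies and at -146. This loose pattern occurs in 45.8% of all windows, and the CCAAT box, present once in each of the pair, in 33.8%. Neither window held the AP-1 pattern TGANTCA (6.75% of all windows) or the NFAT core GGAAA (55.6%). The windows are rich in G and C, at 72.4% for Rgs2 and 66.4% for Rgs16, against a median of 52.4% over all windows. These letters are a description of the windows and no binding was measured.

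Rgs10, the small Gi-directed member of the family, ran the other way. It lies at chr7:128373621-128418758 on the minus strand. It had 185 CPM in tumour CD137 minus and 138 CPM in tumour CD137 plus, against 306 and 244 CPM in spleen CD137 minus and plus. A value was found in 43.5% (40.7% to 46.3%) and 30.4% (28.7% to 32.1%) of tumour CD137 minus and plus cells, and in 63.8% and 63.6% of spleen CD137 minus and plus cells. Its RefSeq window, at chr7:128418173-128418422 on the minus strand, is shown for contrast with the pair above, with capitals on the NF-kB pattern, the only one of the 5 patterns it holds.
Rgs10: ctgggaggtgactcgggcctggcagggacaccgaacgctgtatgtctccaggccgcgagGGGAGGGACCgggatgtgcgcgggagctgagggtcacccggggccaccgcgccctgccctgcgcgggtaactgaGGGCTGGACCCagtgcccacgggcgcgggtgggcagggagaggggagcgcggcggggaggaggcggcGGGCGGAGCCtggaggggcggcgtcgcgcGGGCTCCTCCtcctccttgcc
It matched at -191, -117, -116, -50 and -21, and the window is 76.4% G and C.

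Rgs3, a larger gene at chr4:62559847-62704001 on the plus strand, was low in all libraries. It had 34.4 CPM in tumour CD137 minus and 42.0 CPM in tumour CD137 plus, against 26.0 and 43.0 CPM in spleen CD137 minus and plus. Shares of cells were 13.5%, 12.8%, 9.42% and 17.1% in the same order of libraries. Its tumour and spleen values overlapped. GENCODE vM21 places the antisense genes Gm11209 and Gm28513 over Rgs3 and Rgs16, and Gm15503 over Rgs10 on its own strand. No source used here says whether counting used the strand, so reads there could be shared.

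**Figure D1:**
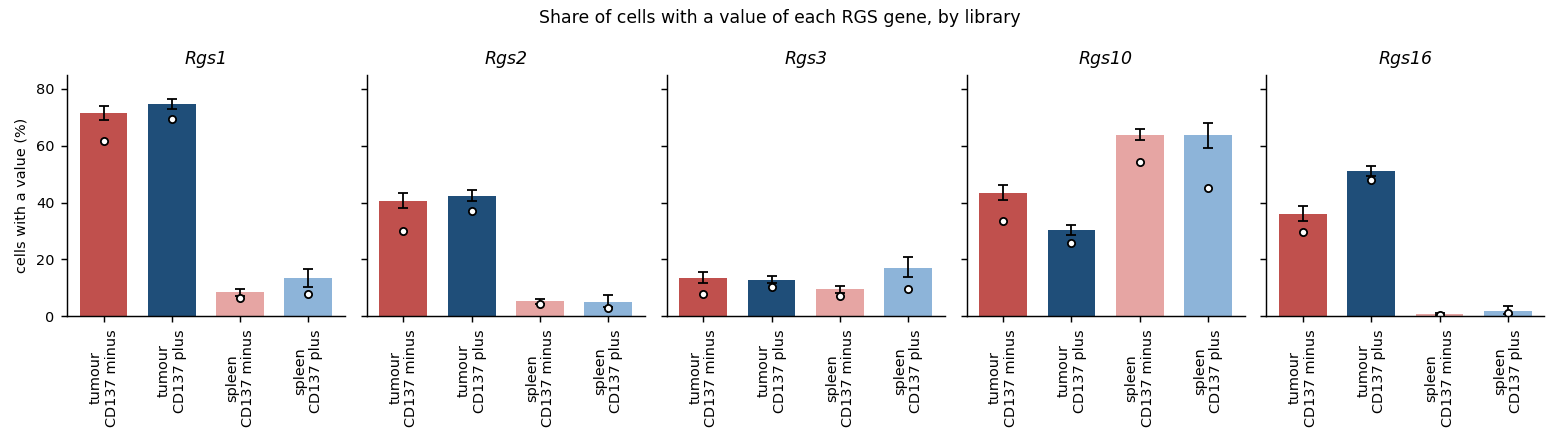
Share of cells with a value of each gene in the 4 libraries, in percent. Bars are all cells with exact 95% intervals and open circles are the share after thinning every cell to 2900 corrected counts. Rgs1, Rgs2 and Rgs16 are high in both tumour libraries, from 36.1% to 74.7%, and Rgs10 is highest in spleen.

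Totals per cell differed between libraries, so each cell was also thinned to 2900 corrected counts, which left out 0 cells. Shares for Rgs1 were then 61.6% and 69.5% in tumour CD137 minus and plus, and for Rgs16 29.5% and 47.8%. Rgs10 kept its order in the tumour at 33.4% in CD137 minus and 25.7% in CD137 plus. In spleen its thinned shares were 54.2% in CD137 minus and 45.2% in CD137 plus, where the shares of all cells had been nearly equal. For Rgs3 the thinned shares were 8.00% in tumour CD137 minus and 10.2% in tumour CD137 plus, the reverse of the order over all cells and the same order as the levels.

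Set against spleen, tumour cells had more Rgs16, Rgs1 and Rgs2 and less Rgs10 in both donors. The log2 ratio of tumour over spleen in CD137 minus cells was 6.73 for Rgs16, 4.78 for Rgs1, 3.53 for Rgs2, 0.39 for Rgs3 and -0.72 for Rgs10. The same ratios in CD137 plus cells were 6.25, 4.43, 4.35, -0.03 and -0.82. So 3 of 5 measured members were called higher and 1 lower in each pair of libraries, where 22.0% of 5412 measured genes were higher and 14.5% lower in CD137 minus, and 24.2% of 5710 higher and 17.5% lower in CD137 plus. The members were chosen with these values known, so the shares are background only. The size of these ratios depended on how they were computed. By the mean of log values per cell the tumour minus spleen difference in CD137 minus was 1.01 for Rgs16, 1.98 for Rgs1 and 0.82 for Rgs2, and in CD137 plus 1.56, 2.21 and 1.003. With 10 CPM added to each level Rgs16 stood at 4.78 in CD137 minus and 5.09 in CD137 plus. The stress list moved the same way as Rgs1, Rgs2 and Rgs16, as given above, and its part in their difference was not tested. In tumour cells with neither Pdcd1 nor Havcr2, set against all spleen cells, the ratio of Rgs10 shrank to -0.32 in CD137 minus and -0.18 in CD137 plus, below the size called. There Rgs16 stood at 4.99 and 4.94 in CD137 minus and plus, Rgs1 at 4.20 and 4.04, and Rgs2 at 2.81 and 3.71.

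Between the tumour libraries, CD137 minus cells had less Rgs16 and somewhat less Rgs1 and Rgs2 than CD137 plus cells, and more Rgs10. The log2 ratio of minus over plus was -0.74 for Rgs16, -0.46 for Rgs2, -0.37 for Rgs1, -0.28 for Rgs3 and 0.42 for Rgs10. Thus 1 of 5 measured members was called, Rgs16, where 5.44% of 5353 measured genes were called lower and 1.70% higher. The median measured gene itself stood at -0.13, so relative to it Rgs16 was at -0.61 and Rgs10 at 0.55, which passes the size called. On that scale 1 of 5 members was higher and 1 lower, where 3.68% of genes were higher and 2.30% lower. The sum of the markers of dendritic cells and MHC class II also differed between these libraries, as given above. Cd74 had 196 and 334 CPM in tumour CD137 minus and plus, H2-Aa 35.9 and 94.6 CPM, and H2-Ab1 17.7 and 53.1 CPM. Siglech (19.5 and 19.3 CPM), Bst2 (185 and 186 CPM) and Itgax (6.62 and 7.30 CPM) were close. The part of these markers was not tested.

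The tumour libraries differ in how many cells have a Pdcd1 value, 40.7% of CD137 minus (38.0% to 43.5%) and 55.2% of CD137 plus cells (53.3% to 57.1%). Pdcd1 encodes PD-1, an inhibitory receptor of activated and exhausted T cells. The comparison of CD137 minus with plus was therefore repeated within Pdcd1 classes, a step chosen after the values had been seen. Among Pdcd1-negative cells Rgs16 had 101 CPM in CD137 minus and 235 CPM in CD137 plus, a log2 ratio of -1.21. Among Pdcd1-positive cells it had 638 CPM in CD137 minus and 776 CPM in CD137 plus, a ratio of -0.28. In the 96 CD137 minus and 287 CD137 plus cells with both Pdcd1 and Havcr2 it had 964 and 967 CPM, a ratio of -0.00. As a log2 ratio over these 3 classes, the gap in Rgs16 was widest among cells without a Pdcd1 value and near 0 among the double-positive cells. In CPM the gap was of like size in Pdcd1-negative and Pdcd1-positive cells. Whether these ratios differ beyond chance was not tested, with 1 library each. Median totals per cell were 4833.5 in CD137 minus and 3701.5 in CD137 plus, and the part of depth in the classes was not tested. Pdcd1-negative cells also include cells with Tnfrsf9. In cells with none of Pdcd1, Havcr2 and Tnfrsf9, Rgs16 had 84.9 CPM in CD137 minus and 155 CPM in CD137 plus.

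Rgs1 and Rgs2 also differed more in Pdcd1-negative than in Pdcd1-positive cells. For Rgs1 the minus over plus ratio was -0.52 in Pdcd1-negative cells (554 against 793 CPM) and -0.09 in Pdcd1-positive cells (1134 against 1206 CPM). For Rgs2 it was -0.54 and -0.18 in the same classes. In double-positive cells it was -0.10 for Rgs1 and -0.35 for Rgs2, so Rgs2 did not narrow further there. Rgs10 kept a ratio of 0.23 in Pdcd1-negative, 0.28 in Pdcd1-positive and 0.31 in double-positive cells, so its difference was smaller in every class than the 0.42 over all cells. Among cells with 1200 to 1800 genes, another restriction added after seeing the data, the ratio was -1.31 for Rgs16 and 0.54 for Rgs10. The median measured gene stood at -0.26 there.

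**Figure D2:**
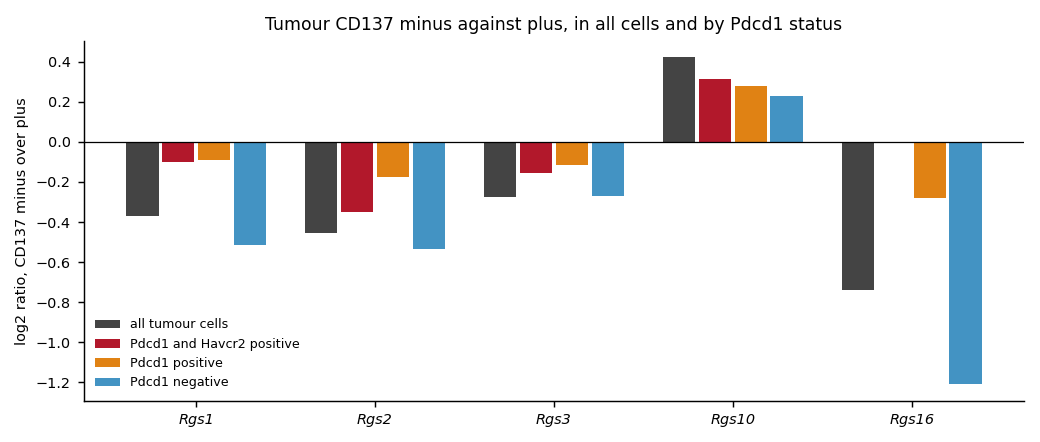
Log2 ratio of levels in tumour CD137 minus over CD137 plus cells, for all tumour cells and within classes of Pdcd1 and Havcr2 status. Each bar is 1 ratio of 2 libraries and has no replicate error. The Rgs16 bars run from -1.21 in Pdcd1-negative cells to -0.00 in double-positive cells, and all Rgs10 bars are above 0.

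In spleen, Rgs1 and Rgs3 were lower in CD137 minus than in CD137 plus cells, with log2 ratios of -0.73 and -0.70, and Rgs10 stood at 0.32. These 3 members were measured and 2 of them were called lower, where 10.3% of 5183 genes were lower and 1.41% higher. Rgs2, at 14.95 and 11.4 CPM in CD137 minus and plus, and Rgs16, at 20 and 15 corrected counts, were below the limit for a measured gene. By the mean of log values per cell, which weighs every cell alike, the differences for Rgs1 and Rgs3 were only -0.09 and -0.12.

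Within the tumour, cells were compared by whether they had a value of Pdcd1, of Havcr2 (TIM-3, an inhibitory receptor of exhausted T cells) or of Tnfrsf9. Rgs16 was higher and Rgs10 lower in the positive cells of all 3 genes and in both libraries. By Pdcd1 in tumour CD137 minus, Rgs16 had 638 CPM in positive and 101 CPM in negative cells, and Rgs10 had 98.7 and 245 CPM. The log2 ratios of positive over negative were 2.65 for Rgs16, 1.32 for Rgs2, 1.03 for Rgs1, 0.76 for Rgs3 and -1.30 for Rgs10. In tumour CD137 plus they were 1.72, 0.96, 0.60, 0.60 and -1.35 in the same order of genes.

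For Havcr2 the ratios in tumour CD137 minus were 1.68 for Rgs16, 0.86 for Rgs1, 0.50 for Rgs2 (just under the size called), 0.44 for Rgs3 and -1.21 for Rgs10. In tumour CD137 plus Rgs16 stood at 0.88 and Rgs10 at -1.49, while Rgs1, Rgs2 and Rgs3 lay between 0.39 and 0.44. The first of these comparisons rests on 117 Havcr2-positive cells and the second on 356.

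For Tnfrsf9 the ratios in tumour CD137 minus were 1.71 for Rgs16, 1.06 for Rgs2, 0.68 for Rgs1, 0.25 for Rgs3 and -1.69 for Rgs10. In tumour CD137 plus they were 1.29, 0.96, 0.38, 0.48 and -1.44. In CD137 minus cells a Tnfrsf9 value marks reads of the targeted gene, so the 2 libraries are not alike in what this gate selects.

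The counts must be read against a wide background. Cells with a value of a gate gene had more genes per cell, for Pdcd1 a median of 1729.5 against 1334.5 genes in tumour CD137 minus and 1499 against 1187 genes in tumour CD137 plus. The median measured gene was higher in positive cells by 0.44 for Pdcd1 in CD137 minus and 0.34 in CD137 plus, by 0.39 and 0.25 for Havcr2, and by 0.44 and 0.27 for Tnfrsf9. For Pdcd1, 4 of 5 members were called higher and 1 lower in each library, where 44.5% of genes were higher and 4.40% lower in CD137 minus and 31.7% higher and 4.21% lower in CD137 plus. For Havcr2 the counts were 2 higher and 1 lower in CD137 minus (40.0% and 5.27% of genes) and 1 and 1 in CD137 plus (22.3% and 3.49%). For Tnfrsf9 they were 3 and 1 in CD137 minus (45.0% and 5.35%) and 2 and 1 in CD137 plus (26.5% and 4.82%). The choice of the genes used these contrasts, so nothing is read from the counts.

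Relative to the median gene, Rgs16 kept ratios of 2.20 and 1.38 by Pdcd1 in CD137 minus and plus, and Rgs10 ratios of -1.74 and -1.68. Rgs2 kept 0.88 and 0.63. Rgs1 stood at 0.59 in CD137 minus and at 0.27 in CD137 plus, and Rgs3 at 0.31 and 0.27. The stress list was lower in Pdcd1-positive than in Pdcd1-negative cells, at 12252 against 14444 CPM in CD137 minus and 11831 against 15318 CPM in CD137 plus. Only the sum of the list was taken by status, and its part in the differences of the members was not tested.

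**Figure D3:**
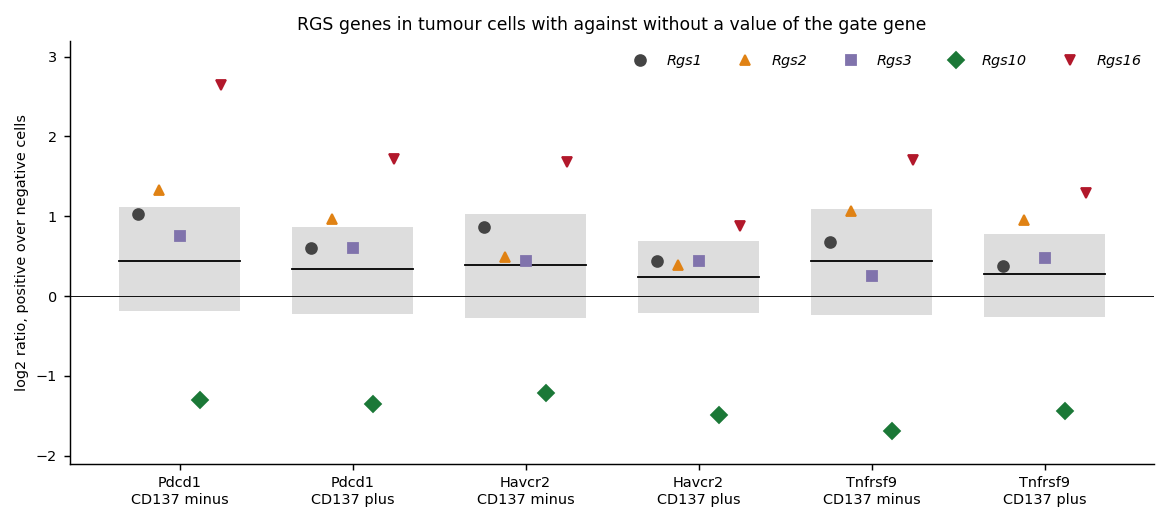
Log2 ratio of levels in tumour cells with over without a value of Pdcd1, Havcr2 or Tnfrsf9, in each tumour library. Grey bars span the 10th to 90th percentile of all measured genes and black lines their median, which is 0.25 to 0.44. Rgs16 lies above and Rgs10 below the grey range in all 6 comparisons.

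Among cells with a similar number of genes, 1200 to 1800, a restriction chosen after the values had been seen, the Pdcd1 ratios of Rgs16 were 2.63 in CD137 minus and 2.43 in CD137 plus. Those of Rgs1 were 1.48 and 1.02, of Rgs2 1.46 and 1.16, of Rgs3 0.77 and 0.59, and of Rgs10 -0.90 and -1.39. The median measured gene then stood at 0.26 in CD137 minus and 0.16 in CD137 plus.

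Split by the number of corrected counts of Pdcd1 (0, 1, 2 to 3, 4 or more), the members changed at different points. These classes were set after the status values were known. In tumour CD137 minus, Rgs16 had 101, 331, 682 and 763 CPM from the lowest class to the highest, a step at each class. In tumour CD137 plus it had 235, 759, 728 and 831 CPM, so most of the difference lay between 0 and 1 count. The tumour libraries were furthest apart in CPM among cells with a single Pdcd1 count. That class had a median of 1331 genes per cell in CD137 minus and 1433 in CD137 plus. Median totals per library were 4833.5 and 3701.5, so 1 count is not the same Pdcd1 level in both.

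Rgs10 was lower in each class with Pdcd1 than in the zero class, with 245, 145, 114 and 68.7 CPM in tumour CD137 minus and 209, 102, 69.7 and 81.2 CPM in tumour CD137 plus. Rgs1 had 554, 894, 1172 and 1229 CPM in CD137 minus and 793, 1095, 1096 and 1373 CPM in CD137 plus. Rgs2 had 113, 207, 294 and 316 CPM in CD137 minus and 164, 277, 307 and 358 CPM in CD137 plus. Rgs3 moved within 26.6 to 53.0 CPM in CD137 minus and 32.3 to 56.2 CPM in CD137 plus. In the highest class the 2 tumour libraries were close for Rgs16, with 77.1% (71.4% to 82.1%) of CD137 minus and 74.6% (70.9% to 78.0%) of CD137 plus cells having a value.

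**Figure D4:**
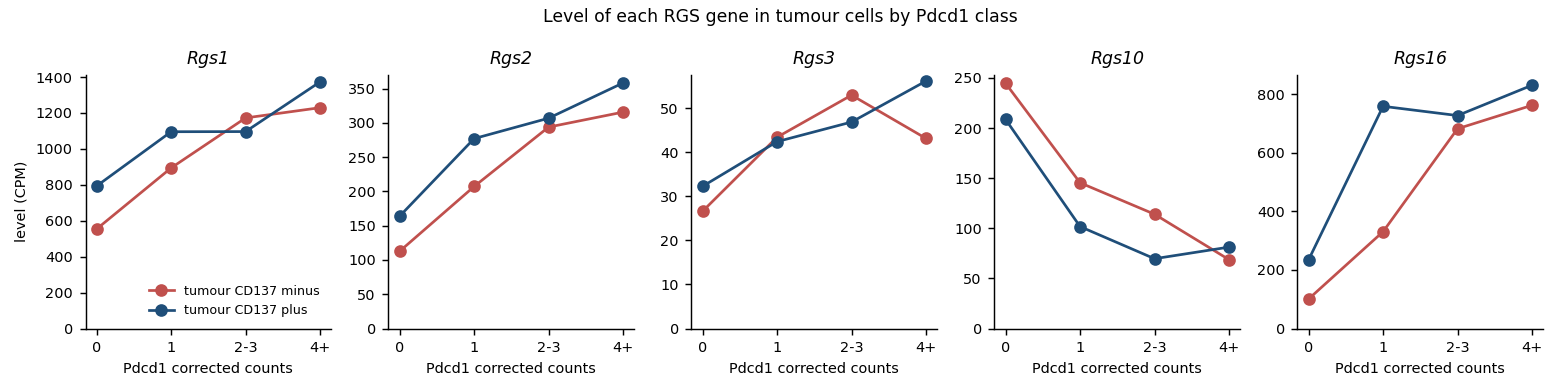
Level of each gene in CPM in tumour cells with 0, 1, 2 to 3 and 4 or more corrected counts of Pdcd1, in tumour CD137 minus (red) and CD137 plus (blue). Points are single libraries without replicate error and each vertical axis starts at 0. Rgs16 increases and Rgs10 decreases from the zero class to the highest class in both libraries.

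Taking Pdcd1, Havcr2 and Tnfrsf9 together, in classes also set after seeing the data, Rgs16 had 1046 CPM in triple-positive and 84.9 CPM in triple-negative cells of tumour CD137 minus. In tumour CD137 plus it had 987 CPM in triple-positive and 155 CPM in triple-negative cells. Rgs10 had 37.2 against 248 CPM in CD137 minus and 38.9 against 239 CPM in CD137 plus, triple-positive before triple-negative. The triple-positive class of CD137 minus holds 48 cells. In cells of CD137 plus with Tnfrsf9 alone, Rgs16 stood between these ends at 455 CPM, with a value in 48.6% of 243 cells. Rgs2 had its highest level of all 4 Pdcd1-positive classes in those with Tnfrsf9 and without Havcr2, 370 CPM in CD137 minus and 366 CPM in CD137 plus.

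Gates combining values of several genes were also described. Gates that use Pdcd1 or Havcr2 rest on genes used in choosing the members, so their values in part restate that choice. Cells with Pdcd1 and Havcr2, the pattern of exhausted CD8 T cells, had the highest Rgs16 of the 5 tumour gates, 964 and 967 CPM in CD137 minus and plus, and the lowest Rgs10, 54.7 and 43.8 CPM. Cells with Pdcd1 and Tcf7 or Slamf6 but no Havcr2, genes of stem-like exhausted cells, had 362 and 549 CPM of Rgs16 and 164 and 136 CPM of Rgs10. Rgs16 in that gate was lower than in the double-positive gate in both libraries, and Rgs10 higher.

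Rgs1 was about as high in cells with Gzmk or Klrg1 and no Havcr2, genes of effector cells, as in the double-positive cells. It had 1177 and 1421 CPM there in CD137 minus and plus, against 1311 and 1406 CPM in the double-positive cells. Rgs16 in the effector gate was lower, at 310 and 599 CPM. Cells with both Xcl1, a chemokine, and Tnfrsf4 (OX40, a costimulatory receptor) had the highest share of Rgs2-positive cells in CD137 minus, 63.4% (54.9% to 71.3%), and 53.3% (47.8% to 58.7%) in CD137 plus. Their Rgs1 levels, 805 and 785 CPM, were below those of the effector gate. Genes per cell differed too, with medians of 2076.5 and 1749.5 in these cells and 1540 and 1253 in the effector gate. Cycling cells had 710 and 625 CPM of Rgs16 and 65.4 and 80.0 CPM of Rgs10.

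Rgs1 was found widely even in tumour cells without these receptors. Cells with none of Pdcd1, Havcr2 and Tnfrsf9 had 502 CPM in CD137 minus and 748 CPM in CD137 plus, with a value in 62.0% and 66.3% of them. RNA free in the suspension can give counts in cells that do not express a gene. Only 1 cell met the gate for melanoma cells, so no share in a cell type that should lack the genes was available inside the tumour. The ratio of Rgs1 to Rgs16 corrected counts was 3.79 in the effector gate and 1.36 in double-positive cells of CD137 minus. In those gates of CD137 plus it was 2.37 and 1.45. Levels of both genes differ between gates, so this ratio gives no measure of free RNA. The part of free RNA in the shares was not tested.

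**Figure D5:**
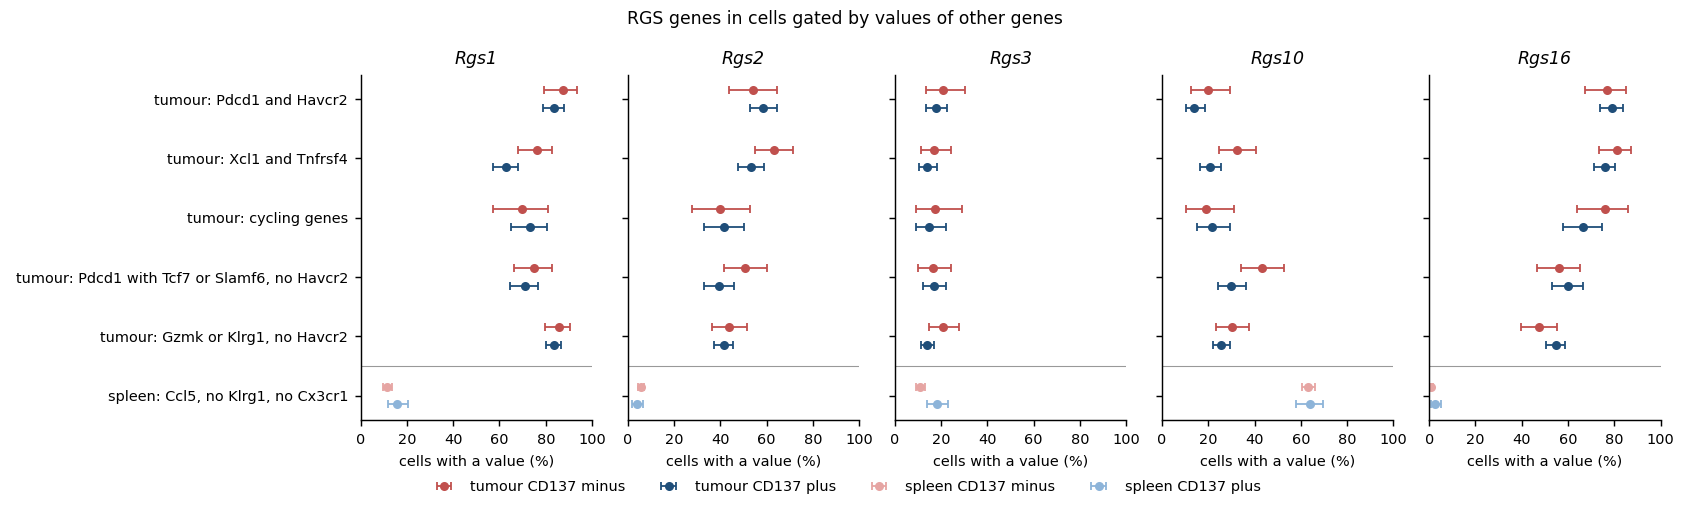
Share of cells with a value of each gene, in percent with exact 95% intervals, in gated cells of tumour (upper 5 rows) and spleen (lowest row). The tumour gates use values of other genes, among them Pdcd1 and Havcr2, which were used in choosing the members. Gates overlap and each point is 1 library. Rgs1 lies at 62.7% or above in every tumour gate and at or under 15.6% in the spleen gate, while Rgs16 in the tumour gates lies between 47.3% in the effector gate and 81.0% in cells with Xcl1 and Tnfrsf4. Both of these Rgs16 shares are of tumour CD137 minus, where median genes per cell were 1540 and 2076.5.

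In spleen, cells with Ccl5 and neither Klrg1 nor Cx3cr1, a memory pattern, had 38.3 and 60.7 CPM of Rgs1 in CD137 minus and plus. Rgs3 had 30.6 and 47.9 CPM in them, and Rgs10 had 296 and 227 CPM. The gate for Ccl5 with Klrg1 or Cx3cr1 held 39 cells in each spleen library, under the 50 cells required.

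Single cells often carried several members. In tumour CD137 minus 66.4% and in tumour CD137 plus 71.9% of cells had a value of 2 or more, against 13.9% and 19.2% in spleen CD137 minus and plus. Cells with Rgs16 more often had Rgs1, in 85.3% against 63.8% of cells without Rgs16 in CD137 minus, and in 80.7% against 68.3% in CD137 plus. They more often had Rgs2 as well, in 58.1% against 30.8% in CD137 minus and 52.4% against 32.0% in CD137 plus. Rgs10 was rarer in cells with Rgs16, at 30.04% against 51.1% in CD137 minus and 19.3% against 41.9% in CD137 plus.

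Cells with Rgs16 had more genes per cell, a median of 1751.5 against 1326.5 in CD137 minus and 1476.5 against 1203.5 in CD137 plus. The part of genes per cell in the shares of Rgs1, Rgs2 and Rgs10 was not tested. Spearman's rank correlation across the cells of CD137 minus and plus was 0.34 and 0.27 for Rgs16 with Rgs1, 0.30 and 0.26 for Rgs16 with Rgs2, and -0.24 and -0.25 for Rgs16 with Rgs10. These are weak in sparse counts of cells that share a library, and are given as a description. For Rgs3 the rank correlation with the other members lay between -0.014 and 0.10 in the tumour libraries.

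Over 9 groups of cells, the spleen libraries whole and the tumour libraries split by Pdcd1 and Havcr2, the genes whose log2 levels most resembled each member were found among 6503 genes. Rgs16 was nearest to Bcl2a1b, a survival gene of the BCL2 family, Nr4a2, a nuclear receptor induced by T cell receptor signals, and Fbrsl1, with Pearson r of 1.00, 1.00 and 0.99. Rgs1 was nearest to Dusp5, a phosphatase of ERK, Skil, a repressor of TGF-beta signalling, and Nr4a3, each at 1.00. For Rgs2 they were Crem, a cyclic AMP responsive factor, Hspa2 and Ifitm2, at 1.00, 1.00 and 0.99. Rgs10 was nearest to Tdrp, Klf3 and Satb1, at 0.99, 0.99 and 0.98, and Rgs3 to Zfp62, Msh3 and Prpf18, at 0.99, 0.98 and 0.97. Between members, r was 0.99 for Rgs1 with Rgs2 and with Rgs16, and -0.75 to -0.88 for Rgs10 with the other 4. Groups of 1 library share that library and the tumour and spleen groups lie far apart, so high r values come easily over 9 such groups.

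None of the other measured genes with an RGS domain was called higher in tumour than in spleen. Of 28 listed symbols, of which Adrbk1 is an older name of Grk2 and has no column of its own, 18 had a column and 6 were measured in CD137 plus cells of tumour against spleen. All 6 were called lower, where 17.5% of all measured genes were, with a median of -1.08 against 0.07 over all measured genes. Axin1, at 13.8 CPM in tumour CD137 plus and 20.7 CPM in spleen CD137 plus, was measured only through spleen. Arhgef1, an effector of G12 and G13, had 120 CPM in tumour CD137 plus and 332 CPM in spleen CD137 plus, a log2 ratio of -1.46. Rgs19 stood at -1.12, the receptor kinase Grk6 at -1.11, Rgs14 at -1.04, the receptor kinase Grk2 at -0.68 and Axin1, a scaffold of Wnt signalling, at -0.55.

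In CD137 minus cells 5 of the list were measured and 4 were lower in tumour: Rgs14 (-1.16), Rgs19 (-0.997), Grk6 (-0.69) and Arhgef1 (-0.59), with Grk2 at -0.28. Rgs14, at 19.4 CPM in tumour CD137 minus, was measured only through spleen. The share of all genes lower there was 14.5%. Between tumour CD137 minus and plus, 0 of 5 measured were called, from -0.38 for Rgs14 to 0.26 for Arhgef1. In spleen, 2 of 6 were lower in CD137 minus, Axin1 (-0.77) and Arhgef1 (-0.61), where 10.3% of all genes were lower. Axin1 had 11.7 CPM in spleen CD137 minus and 20.7 CPM in spleen CD137 plus, so it was measured only through CD137 plus. By Pdcd1 status, Rgs19 was the 1 of 4 measured that was lower in positive cells of CD137 minus (-0.64), and 0 of 5 measured were called in CD137 plus. Over all genes 44.5% were higher and 4.40% lower in CD137 minus, and 31.7% and 4.21% in CD137 plus. Relative to the median gene 3 of 4 were lower in CD137 minus and 2 of 5 in CD137 plus. No share over all genes was taken on that scale by status. By Havcr2 status Snx14 (0.99) was higher in CD137 minus and Rgs8 (1.31) in CD137 plus, where 40.0% and 22.3% of all genes were higher. Over all cells of these libraries Snx14 had 11.1 CPM and Rgs8 9.34 CPM, under the limit of 20 CPM. They were measured only through the Havcr2-positive cells, so nothing is read from their calls. By Tnfrsf9 status Rgs14 was lower in CD137 minus (-0.63) and plus (-0.51), and Arhgef1 in CD137 minus (-0.65). Of all genes 5.35% were lower in CD137 minus and 4.82% in CD137 plus. Over all cells of tumour CD137 minus Rgs14 had 19.4 CPM, so it was measured there only through the Tnfrsf9-negative cells. Relative to the median gene 4 of 5 of the list were lower by Tnfrsf9 in CD137 minus and 2 of 5 in CD137 plus. Rgs8 is close to the limit of detection, with a value in 2.96% of tumour CD137 plus and 1.27% of tumour CD137 minus cells, and in 0 of 2464 and 0 of 473 spleen CD137 minus and plus cells.

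The partners of the RGS proteins were listed by role. Among alpha subunits, 4 of 6 measured were higher in tumour than in spleen in CD137 minus and in CD137 plus, and 0 were lower. Over all genes 22.0% were higher and 14.5% lower in CD137 minus, and 24.2% and 17.5% in CD137 plus. Gnas, the Gs alpha subunit, had 622 CPM in tumour CD137 plus and 385 CPM in spleen CD137 plus (0.69), and Gna15, of the Gq class, 41.0 and 25.5 CPM (0.66). Gnai3, an alpha subunit of the Gi class on which RGS1, RGS3, RGS10 and RGS16 act, stood at 0.61. Between tumour CD137 minus and plus 0 of 6 were called, with Gnai3 at -0.45, Gna15 at -0.33 and Gna11 at 0.20. By Pdcd1 status 3 of 6 were higher in each tumour library, where 44.5% of all measured genes were higher in CD137 minus and 31.7% in CD137 plus. Relative to the median gene 1 of 6 was higher in each library, and 1 was lower in CD137 plus.

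Of the beta and gamma subunits, 3 of 5 measured were higher in tumour CD137 minus and 3 of 6 in tumour CD137 plus, against spleen. The shares of all genes higher there were 22.0% and 24.2%. Gnb4 had 21.5 CPM in tumour CD137 plus and 2.43 CPM in spleen CD137 plus (2.71), Gng2 175 and 60.4 CPM (1.52), and Gng10 stood at 0.70. Gnb4 was the 1 of 6 called lower in tumour CD137 minus than plus, at -0.50, where 5.44% of all genes were lower. Gng2 at -0.50 and Gng10 at -0.31 were both short of the size called. Gnb4 had 14.9 CPM in tumour CD137 minus and 21.5 CPM in tumour CD137 plus, so it was measured only through CD137 plus. Relative to the median gene Gnb4 stood at -0.37, and 0 of 6 were called. By Pdcd1 status, 4 of 6 in CD137 minus and 3 of 6 in CD137 plus were higher in positive cells, Gnb4 among them at 2.23 and 1.62. The shares over all genes were 44.5% and 31.7%, and relative to the median gene the counts were 2 of 6 in CD137 minus and 1 of 6 in CD137 plus.

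Receptors that couple to Gi, the class on which RGS1, RGS3, RGS10 and RGS16 act, were split. In CD137 plus cells 1 of 11 measured was higher and 6 lower in tumour than spleen, and in CD137 minus cells 4 of 10 were higher and 3 lower. Of all genes, 24.2% were higher and 17.5% lower in CD137 plus, and 22.0% and 14.5% in CD137 minus. Cxcr6, a chemokine receptor of tissue-resident T cells, had 314 CPM in tumour CD137 plus and 68.9 CPM in spleen CD137 plus (2.17). S1pr1, the receptor that lets T cells leave lymphoid tissue, had 43.6 and 163 CPM (-1.88), and Ccr2 stood at -1.11. Between the tumour libraries 1 of 11 was called, Cx3cr1 at -0.54 in CD137 minus, with S1pr1 at 0.43. Cx3cr1 had 18.2 CPM in tumour CD137 minus and 26.9 CPM in tumour CD137 plus, so it was measured only through CD137 plus. Over all genes 1.70% were higher and 5.44% lower. Relative to the median gene the calls turned, with 0 lower (Cx3cr1 at -0.41) and 2 higher, S1pr1 at 0.57 and Cxcr4, named after its value was seen, at 0.52. In spleen 1 of 11 was higher and 5 lower in CD137 minus, where 1.41% of all genes were higher and 10.3% lower.

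By Pdcd1 status the Gi-coupled receptors had 4 of 12 higher and 5 lower in each tumour library, where 44.5% of all genes were higher and 4.40% lower in CD137 minus and 31.7% and 4.21% in CD137 plus. Cxcr6 was higher in positive cells, at 2.41 in CD137 minus and 1.66 in CD137 plus, and S1pr1 lower, at -1.74 and -1.72. In the same comparison Rgs16 was higher and Rgs10 lower, as given above.

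Of the receptors listed as coupled to Gs or Gq, 4 of 6 in CD137 minus and 3 of 6 in CD137 plus were higher in tumour. The shares of all genes higher there were 22.0% and 24.2%. Of the list 0 were lower, where 14.5% and 17.5% of all genes were. The list is by name, and which alpha subunits its receptors use was not measured. P2ry10 had 69.1 CPM in tumour CD137 plus and 15.8 CPM in spleen CD137 plus (2.06), the proton sensor Gpr65 stood at 0.97 and Gpr132 at 0.89. Between tumour CD137 minus and plus 0 of 6 were called, with P2ry10 at -0.35 and the adenosine receptor Adora2a at -0.27. By Pdcd1 status 3 of 8 were higher and 1 lower in CD137 minus, and 5 of 7 higher and 1 lower in CD137 plus, beside 44.5% and 31.7% of all genes higher. Relative to the median gene 3 of 8 were higher in CD137 minus and 2 of 7 in CD137 plus, with 1 lower in each.

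Arrestins and effectors had 4 higher and 2 lower of 14 in tumour CD137 minus against spleen, and 1 higher and 4 lower of 13 in CD137 plus. Of all genes, 22.0% were higher and 14.5% lower in CD137 minus, and 24.2% and 17.5% in CD137 plus. The phosphodiesterase Pde4d had 88.3 CPM in tumour CD137 plus and 16.2 CPM in spleen CD137 plus (2.37), while the adenylyl cyclase Adcy7 stood at -1.37 and Pik3r5, a regulatory subunit of PI3K gamma, at -1.004. Between tumour CD137 minus and plus, 2 of 13 were called higher, the phosphodiesterases Pde7a (51.8 against 35.1 CPM, 0.55) and Pde4b (154 against 106 CPM, 0.54), and Pde4d stood at -0.48. The share of all genes higher there was 1.70%. In spleen 0 were higher and 5 of 13 lower in CD137 minus, where 1.41% of all genes were higher and 10.3% lower.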

How the data were processed

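Single-cell 5' RNA libraries of sorted CD8 T cells were made with the 10x Chromium kit, per the labels' protocols. The submitters' processing notes name the mm10 build, Seurat 3.0 and Cell Ranger 3.0.2 without settings. The deposited values, for 6965 cells and 12763 genes, are on a natural log scale, and undoing ln(1 + x) gives whole numbers to within a relative deviation of 1e-12. The whole numbers had narrow totals per cell (2949 to 4588 in tumour CD137 plus, for example), as counts corrected to one depth have. That is read from the values, so they are called corrected counts here and no count model was used. Sums over 2466601 to 10273681 corrected counts per library give the levels.

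Levels, log2 ratios and exact intervals were computed with Python 3.11.15, numpy 2.4.6 and scipy 1.17.1, and figures with matplotlib 3.10.9. The ratio step was tested on simulated data. A level in a gate needed 50 cells, a group of the likeness search or of the combined Pdcd1, Havcr2 and Tnfrsf9 classes 30. No doublet caller was run, and cells were not treated as replicates. Members and lists were chosen with earlier results of these data known, and the classes of Pdcd1 counts, the combined status classes, the window of 1200 to 1800 genes, the comparison within Pdcd1 classes and the promoter patterns after values or sequences had been seen. Named were the members, the other RGS-domain genes measured, up to 3 genes per list with the largest size of log2 ratio in tumour CD137 minus against plus and in tumour against spleen CD137 plus, and the 3 genes most like each member by Pearson r (20 CPM or more in a group, leaving out antigen receptor, immunoglobulin, mitochondrial, ribosomal, haemoglobin, sex-linked and unnamed genes). Their Pdcd1 values were added for Gnb4, Cxcr6 and S1pr1 after being seen. Of the 115 listed symbols of partner genes, 1 of them an older name of Grk2, 89 had a column. Symbols matched GENCODE vM21 for 12631 genes. Promoter sequences are from RefSeq, which the table used gives for 4 of the 5 members. Alternatives were another pseudocount, the median gene as scale, other sets of cells, thinning, means of log values, other limits for status and no filter. Some genes of the lists, and gates and an alternative set of cells that rest on one of them, are not reported here.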

Additional observations from a re-analysis of the deposited data

Results flagged for a closer look

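Of the RGS group only Rgs1, Rgs3 and Rgs10 were measured in both tumour and spleen CD137 minus against plus, and none of these 3 had opposite signs there. Rgs2, not measured in spleen, stood at -0.46 in tumour and 0.37 in spleen. For 7 listed partner genes the log2 ratio of CD137 minus over plus had opposite signs in tumour and spleen and differed by at least 0.5, a limit set after seeing the data, with 1 library per group, so no difference was tested. Pde7a stood at 0.55 in tumour and -0.67 in spleen, 1.22 apart. Arhgef1 stood at 0.26 and -0.61, 0.87 apart, and Pde4b at 0.54 and -0.20, 0.74 apart. Gna11 stood at 0.20 and -0.53, 0.73 apart, and Adcy7 at 0.07 and -0.56, 0.63 apart. S1pr1 stood at 0.43 and -0.12, 0.55 apart, and Pik3r5 at 0.01 and -0.52, 0.53 apart. The same 4 libraries give the same gaps when tumour is set against spleen: Pde7a at 0.71 in CD137 minus and -0.50 in CD137 plus (1.22 apart), Pde4b at 0.59 and -0.15 (0.74 apart) and Gna11 at 0.55 and -0.18 (0.73 apart). By Havcr2 status Pik3r5 stood at 0.22 in tumour CD137 minus and -0.38 in tumour CD137 plus, 0.60 apart and likewise untested.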

How the results depend on the processing

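No paired analysis was possible because each group is 1 library, and for the same reason no library could be left out. The 48 log2 ratios of the RGS genes were recomputed under up to 11 settings, which gave 355 values: 323 stayed on the same side of 0.5 in size, 15 dropped below it, 17 passed it and 0 called ratios changed sign. A ratio under 0.5 that changed sign was counted as unchanged. The cause of these moves was not tested. Relative to the median gene, Rgs10 passed in tumour CD137 minus against plus (0.55), and below it were Rgs3 by Pdcd1 (0.31 in CD137 minus, 0.27 in CD137 plus), Rgs1 by Pdcd1 in CD137 plus (0.27), and Rgs1 in CD137 minus by Havcr2 (0.48) and Tnfrsf9 (0.24). By the mean of log values, Rgs1 (-0.090) and Rgs3 (-0.12) in spleen, Rgs3 by Pdcd1 (0.12 in CD137 minus, 0.11 in CD137 plus) and Rgs10 by Havcr2 in CD137 plus (-0.44) dropped, and Rgs1 by Havcr2 in CD137 plus passed (0.54). Thinning gave 0.48 for Rgs3 by Pdcd1 in CD137 plus, 0.79 for Rgs3 by Havcr2 in CD137 minus and 0.53 for Rgs1 by Havcr2 in CD137 plus, and a pseudocount of 10 CPM gave 0.50 (just under) for Rgs3 by Pdcd1 in CD137 plus. Status by 2 counts gave 0.54 and 0.62 for Rgs3 by Havcr2 in CD137 minus and plus and 0.58 for Rgs1 in CD137 plus. In tumour cells without Pdcd1 and Havcr2, Rgs10 dropped against spleen, to -0.32 in CD137 minus and -0.18 in CD137 plus. The sets of cells that follow were added after seeing the data. In Pdcd1-negative cells of tumour CD137 minus against plus, Rgs1 (-0.52) and Rgs2 (-0.54) passed, and in Pdcd1-positive cells Rgs16 dropped (-0.28). The median gene of the Pdcd1-negative cells stood at -0.13. Relative to it Rgs1 was at -0.38 and Rgs2 at -0.40, both short of 0.5. Among cells with 1200 to 1800 genes, Rgs1 (-0.56), Rgs2 (-0.74) and Rgs10 (0.54) passed in tumour CD137 minus against plus. The median gene there stood at -0.26. Relative to it Rgs1 was at -0.30 and Rgs2 at -0.48, both short of 0.5, and Rgs10 at 0.80. By Havcr2 in CD137 minus Rgs2 (0.59) and Rgs3 (0.59) passed, with 32 positive cells and the median gene at 0.40. So did Rgs1 (0.92) and Rgs2 (0.51) by Havcr2 in CD137 plus, and Rgs1 by Tnfrsf9 in CD137 plus (0.71). The median gene stood at 0.14 in both. Without a filter on low values the genes called were 1440 (382 with it) in tumour CD137 minus against plus, 1893 (606) in spleen, 4265 (1977) in tumour against spleen CD137 minus and 4291 (2386) in CD137 plus. By status they were 5831 (2751) for Pdcd1 in CD137 minus and 4954 (2032) in CD137 plus, 5084 (2646) and 3793 (1494) for Havcr2, and 5593 (2967) and 4405 (1773) for Tnfrsf9. Thinning moved 18 of 20 shares of cells beyond their intervals. The low spleen sums of Rgs16, 20 and 15 corrected counts in CD137 minus and plus, limit its tumour to spleen ratio.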
